A study of Mus musculus with 16 samples.

Results

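The genes described here encode nucleolar ribosome assembly factors, the proteins that modify, fold and cut the ribosomal RNA precursor and load ribosomal proteins onto it. They were taken by symbol from a list of 60 genes, of which 58 were in the deposited table of 9443 genes and 54 had enough counts to be tested among 6824 genes. By role the 54 fell into 4 box C/D proteins, 4 H/ACA proteins, 7 early nucleolar factors, 18 small subunit processome proteins, 5 later small subunit factors and 16 large subunit factors. Ddx56 and Brix1 were not analysed here, and Bysl, Wdr12, Nip7 and Ebna1bp2 stayed under the count filter.

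The samples were germinal centre B cells of wild-type (WT) mice, sorted from lymph nodes as light zone (LZ) or dark zone (DZ) cells. Mice had received an antibody against CD40, the B cell receptor for helper T cell signals, or an isotype control antibody, and the cells were taken 4 h later. There were 4 libraries each of anti-CD40 LZ, isotype LZ, anti-CD40 DZ and isotype DZ cells. The labels name no further allele, age or antibody dose, and they do not say whether libraries came from separate mice, so p-values measure only the spread between these samples.

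Ribosomes are built in the nucleolus from a long precursor RNA that RNA polymerase I makes. Small nucleolar RNAs guide its chemical modification: those of the box C/D class direct ribose methylation and those of the H/ACA class direct pseudouridylation, each inside a particle with a fixed set of core proteins. The small subunit processome then folds and cuts the segment of the precursor that becomes the small subunit, other factors ripen the large subunit, and a last set accompanies both toward the cytoplasm. In germinal centres, B cells selected by T cell help in the LZ grow before they divide again in the DZ, and many of the genes above are known targets of the transcription factor Myc.

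RNA was counted at transcript 3′ ends as unique molecular identifiers (UMI), 493131 to 1473415 per library, and levels below are CPM, each gene's count scaled to a common library size after TMM normalisation. Depending on the library, 1 UMI stood for 0.642 to 2.02 CPM. Germinal centre B cell markers were abundant in every library (summed 4501 to 8243 CPM over the 8 of 9 in the table). The 5 LZ markers summed to 5979 to 7293 CPM in anti-CD40 LZ and 1766 to 2476 CPM in isotype LZ libraries. In the DZ they summed to 2761 to 4240 CPM with anti-CD40 and 718 to 867 CPM with isotype. The 5 DZ markers summed to 192 to 247 CPM in anti-CD40 LZ and 560 to 620 CPM in isotype LZ libraries, and to 685 to 786 CPM with anti-CD40 and 885 to 1005 CPM with isotype in the DZ. Of markers of other cells, 1 of 8 T cell genes (Lck), 3 of 9 myeloid genes, 2 of 7 stromal and follicular dendritic genes (Cr2 and Pecam1) and 0 of 7 red cell and platelet genes were in the table. Lck was at 68.4 to 87.3 CPM in anti-CD40 LZ and 93.7 to 144 CPM in isotype LZ libraries, without overlap, and at 68.9 to 85.9 and 58.6 to 93.2 CPM in the anti-CD40 and isotype DZ groups. Cr2 and Pecam1 summed to 37.9 to 54.6 CPM in anti-CD40 LZ and 85.4 to 121 CPM in isotype LZ libraries, also without overlap, and to 32.4 to 60.6 and 41.2 to 59.9 CPM in the DZ groups. The myeloid genes summed to 93.2 to 139.9 CPM in anti-CD40 LZ and 117 to 187 CPM in isotype LZ libraries, and to 178 to 209 and 145 to 191 CPM in the DZ groups. Plasma cell markers (4 of 5 in the table) reached 662 to 840.5 CPM in anti-CD40 LZ and 358 to 978 CPM in isotype LZ libraries, and 615 to 1213 and 422 to 961 CPM in the DZ groups. The part of these markers in the results was not tested. The 4 libraries numbered 4, 1 in each group, stood apart from the other 12, and the count of genes called in each comparison is therefore also given without them.

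Anti-CD40 raised nearly the whole module in LZ cells within 4 h. Of the 54 genes, 45 rose and 0 fell (edgeR quasi-likelihood test, Benjamini-Hochberg adjusted p under 0.05 over all 6824 genes), where 10.8% of all tested genes rose and 8.24% fell. All 54 log2 fold changes were positive, with a median of 1.28 (range 0.35 to 2.33) against 0.01 over all tested genes, and 43 of the 45 genes were at least 2-fold higher. Every anti-CD40 LZ library lay above every isotype LZ library for 42 of the 54 genes, a separation that 11.5% of all tested genes showed in this direction. Without the libraries numbered 4, 49 of 55 testable genes rose, where 9.64% of all genes did. In bulk samples, fewer cells of a type and less RNA per cell cannot be told apart, so these are changes in each gene's share of the RNA.

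**Figure D1:**
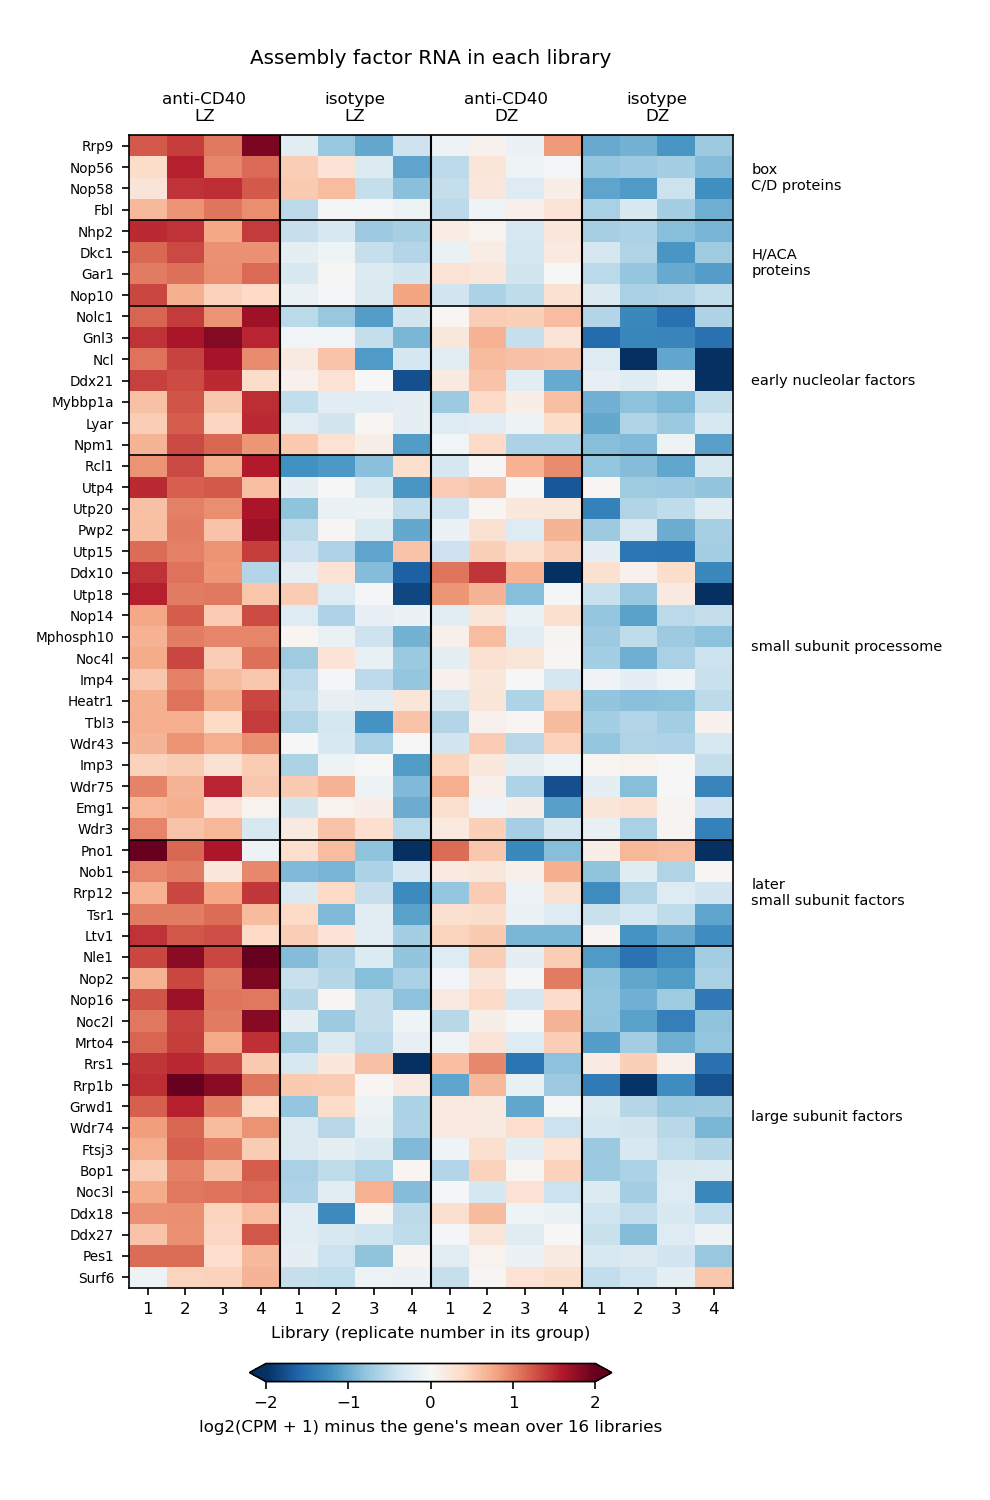
Each row is 1 of the 54 tested genes and each column 1 of the 16 libraries; colour gives log2(CPM + 1) minus the gene's mean over all libraries. The 4 anti-CD40 LZ columns are the highest group on average for all 54 genes.

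The promoters were read because so many of these genes moved together. The letters searched were CACGTG, the E-box that Myc with its partner Max, and other factors, can bind; it reads the same on both strands. A variant, CACGCG, was searched on both strands as well. The window ran from 250 bases before to 50 after the gene start in RefSeq (GRCm38.p6), which held 48 of the 54 tested genes. The E-box was in 13 of those 48 windows (27.1%), in 12.9% of the windows of all tested genes and in 8.09% of all RefSeq windows of that length. Among genes outside the module it was in 20.2% of the 550 that rose in the LZ and in 12% of the 5006 that did not rise. CACGCG was in 12 of the 48 windows (25%), in 22% of the windows of all tested genes, in 30.4% of the 550 and in 21.1% of the 5006. In the module CACGTG was in 3 of 4 later small subunit factors, 5 of 17 processome genes, 4 of 14 large subunit factors and 1 of 6 early nucleolar factors. No window of the 3 box C/D or 4 H/ACA genes held CACGTG. The variant CACGCG was in 4 of 6 early nucleolar, 2 of 4 H/ACA, 3 of 17 processome and 3 of 14 large subunit windows. No box C/D or later small subunit window held that variant. Genes with the E-box had a median log2 fold change of 1.29 after anti-CD40 in the LZ (n = 13), and genes without it 1.28 (n = 35). In 10 of the 13 the motif lay 3 to 41 bases after the start, and in the other 3 it lay 20 to 121 bases before it. A match describes letters, not a bound site. The stretches below are shown as the places where those letters sit in genes whose values follow; they run 5′ to 3′ on the gene's strand, and capitals mark the E-box. Nle1 lies on the minus strand (chr11:82908355-82908384), Nop2 on plus (chr6:125131811-125131840), Imp4 on plus (chr1:34439696-34439725), Pes1 on plus (chr11:3963965-3963994), Utp20 on minus (chr10:88826765-88826789), Mybbp1a on plus (chr11:72441355-72441376), Tsr1 on plus (chr11:74898092-74898121) and Wdr43 on plus (chr17:71616220-71616249).
Nle1: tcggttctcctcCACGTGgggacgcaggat
Nop2: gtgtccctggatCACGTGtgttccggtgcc
Imp4: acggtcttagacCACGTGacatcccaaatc
Pes1: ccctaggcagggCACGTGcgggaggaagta
Utp20: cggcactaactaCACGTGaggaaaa
Mybbp1a: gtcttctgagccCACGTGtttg
Tsr1: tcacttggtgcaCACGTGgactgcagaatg
Wdr43: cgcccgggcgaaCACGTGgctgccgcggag

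All 4 box C/D proteins rose in the LZ. These are Fbl (fibrillarin), the methyltransferase, the paired scaffold proteins Nop56 and Nop58, and Rrp9, which binds the U3 small nucleolar RNA of the processome. Rrp9 (chromosome 9 at 106475963 to 106485424, GRCm38) had 169.5, 189.9, 151 and 269 CPM in the anti-CD40 LZ libraries, against 61.8, 42.3, 34.9 and 54.1 CPM in the isotype LZ libraries. All anti-CD40 libraries were far above all isotype libraries (log2 fold change 1.99, SE 0.25, adjusted p = 2.99e-05). In DZ cells it had 67.1, 77.0, 66.7 and 132 CPM in the anti-CD40 DZ libraries, against 35.5, 37.0, 31.6 and 43.5 CPM in the isotype DZ libraries, again without overlap (log2 fold change 1.19, SE 0.25, adjusted p = 0.0108). Anti-CD40 DZ library 4 was well above the other 3 there, and without isotype DZ library 3 the DZ change no longer passed (adjusted p = 0.0535). Fbl averaged 266 ± 30.9 CPM in anti-CD40 LZ cells and 128 ± 19.6 CPM in isotype LZ cells (SD, n = 4; fitted log2 fold change 1.06, SE 0.19, adjusted p = 0.000789), without overlap. In the DZ its groups overlapped and it did not pass (log2 fold change 0.59, SE 0.19, adjusted p = 0.16).

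The scaffold genes were less even between replicates. Nop56 had 285, 655, 438 and 484 CPM in the anti-CD40 LZ libraries, against 312, 268, 182 and 106 CPM in the isotype LZ libraries. The lowest anti-CD40 library was below the highest isotype one, and the isotype libraries were widely spread (log2 fold change 1.09, SE 0.27, adjusted p = 0.00886). Its 3′ end overlaps Idh3b on the opposite strand, and since the strand setting of the counting is not given, reads of the pair cannot be told apart. Nop58 had 217, 493, 509 and 423 CPM in the anti-CD40 LZ libraries, against 262, 279, 131 and 101 CPM in the isotype LZ libraries, also overlapping (log2 fold change 1.08, SE 0.31, adjusted p = 0.0188). That call was lost without the libraries numbered 4 (adjusted p = 0.0971), without anti-CD40 LZ library 2 or 3 (0.0655 and 0.0535) and without isotype LZ library 3 (0.0699). Neither scaffold gene passed in the DZ (adjusted p = 0.306 and 0.23).

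Of the H/ACA proteins, Nhp2, Gar1 and Dkc1 rose in the LZ and Nop10 did not pass. Dkc1 encodes dyskerin, the pseudouridine synthase, and the other 3 are its core partners; in human cells the same proteins also sit on telomerase RNA. Nhp2 (chromosome 11 at 51619735 to 51623714, GRCm38) had 1253, 1208, 761 and 1178 CPM in the anti-CD40 LZ libraries, against 323, 354, 269 and 279 CPM in the isotype LZ libraries. The groups were far apart, although anti-CD40 library 3 was clearly below the other 3 (log2 fold change 1.84, SE 0.18, adjusted p = 1.61e-06). In the DZ it had 492, 467, 357 and 522 CPM in the anti-CD40 DZ libraries, against 281, 285, 245 and 233 CPM in the isotype DZ libraries, again without overlap and with a smaller difference (log2 fold change 0.81, SE 0.17, adjusted p = 0.0101). Its 3′ end overlaps Rmnd5b, and that of Dkc1 overlaps Mpp1, on the opposite strand.

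Gar1 averaged 291 ± 17.9 CPM in anti-CD40 LZ cells and 119.9 ± 15.5 CPM in isotype LZ cells (SD, n = 4; fitted log2 fold change 1.27, SE 0.18, adjusted p = 5.94e-05), with libraries of each group close to each other. It also rose in the DZ, with 146 ± 28.3 CPM in anti-CD40 DZ cells and 77.6 ± 13.8 CPM in isotype DZ cells (log2 fold change 0.91, SE 0.18, adjusted p = 0.00497), without overlap. Dkc1 had 204, 230.4, 173 and 173 CPM in the anti-CD40 LZ libraries, against 80.2, 86.2, 66.2 and 61.0 CPM in the isotype LZ libraries, without overlap (log2 fold change 1.40, SE 0.20, adjusted p = 8.76e-05). In the DZ its groups overlapped (log2 fold change 0.66, SE 0.20, adjusted p = 0.112). Nop10 had 162, 104, 87.7 and 84.4 CPM in the anti-CD40 LZ libraries, against 57.8, 62.7, 51.5 and 109.9 CPM in the isotype LZ libraries. Isotype library 4 was above 3 of the 4 anti-CD40 libraries, and the gene did not pass (log2 fold change 0.63, SE 0.27, adjusted p = 0.114). Without the libraries numbered 4 it did (log2 fold change 0.998, adjusted p = 0.00535).

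**Figure D2:**
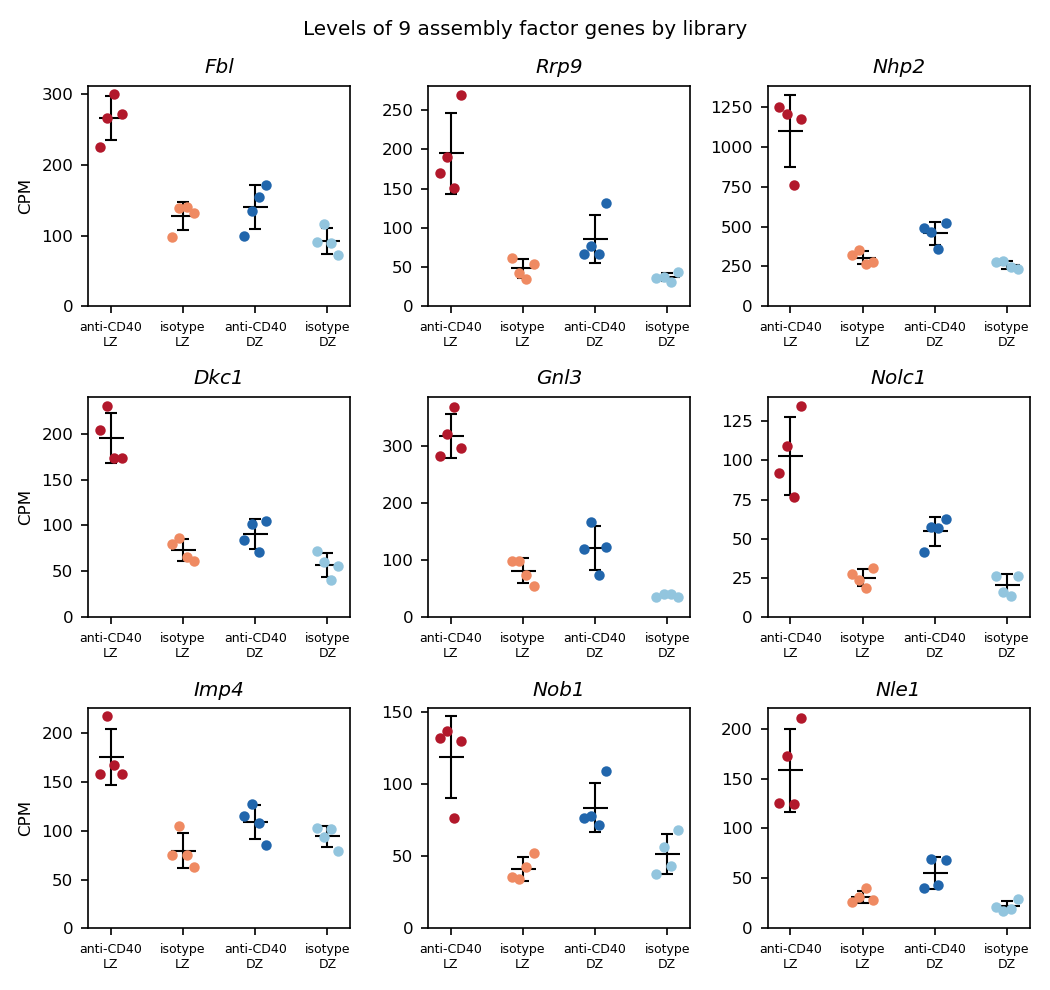
Levels (CPM) of 9 assembly factor genes in the 4 groups, with 1 point per library and bars at the mean ± SD (n = 4 libraries). For Rrp9, Nhp2, Gnl3, Nolc1, Nob1 and Nle1 the anti-CD40 libraries lie above the isotype libraries of the same zone without overlap in both zones. Anti-CD40 LZ has the highest group mean throughout.

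All 7 early nucleolar factors rose in the LZ. Gnl3 encodes nucleostemin, a GTP-binding protein of the nucleolus (chromosome 14 at 31012433 to 31019152, GRCm38), and had 282, 321, 369 and 297 CPM in the anti-CD40 LZ libraries, against 98.6, 98.8, 73.6 and 54.1 CPM in the isotype LZ libraries. Even the lowest anti-CD40 library was far above the highest isotype library (log2 fold change 1.95, SE 0.23, adjusted p = 1.11e-05). DZ cells had 120.3, 167, 74.7 and 123 CPM in the anti-CD40 DZ libraries, against 34.8, 41.0, 40.5 and 36.0 CPM in the isotype DZ libraries, the largest DZ rise among the 54 (log2 fold change 1.69, SE 0.23, adjusted p = 0.00016). Nolc1, a chaperone of small nucleolar particles, had 91.9, 109, 76.6 and 134 CPM in the anti-CD40 LZ libraries, against 27.6, 23.5, 18.4 and 31.4 CPM in the isotype LZ libraries (log2 fold change 2.01, SE 0.27, adjusted p = 3.81e-05). Both groups kept apart, and so they did in the DZ, where it averaged 54.8 ± 9.15 CPM in anti-CD40 DZ cells and 20.6 ± 6.67 CPM in isotype DZ cells (SD, n = 4; fitted log2 fold change 1.38, SE 0.26, adjusted p = 0.00424).

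Mybbp1a, a Myb-binding protein of the nucleolus, had 391, 618, 375 and 724 CPM in the anti-CD40 LZ libraries, against 184, 224, 223 and 228 CPM in the isotype LZ libraries, without overlap (log2 fold change 1.29, SE 0.25, adjusted p = 0.00132). In the DZ it passed narrowly (log2 fold change 0.95, SE 0.25, adjusted p = 0.0492) with overlapping groups, and the call was lost in 10 of the other fits, limma-voom (adjusted p = 0.102) and the one without anti-CD40 DZ library 2 (0.186) among them. Npm1 encodes nucleophosmin, a chaperone that shuttles between nucleolus and cytoplasm, and had 821, 1283, 1147 and 945 CPM in the anti-CD40 LZ libraries, against 743, 632, 557 and 237 CPM in the isotype LZ libraries. The groups did not overlap, but isotype library 4 was far below the other 3 (log2 fold change 0.95, SE 0.30, adjusted p = 0.0326). Without it the gene no longer passed (adjusted p = 0.0638), nor without anti-CD40 LZ library 2 (0.104) or 3 (0.0671) or isotype LZ library 3 (0.0675). Ncl (nucleolin, log2 fold change 1.40, SE 0.45, adjusted p = 0.0341), the helicase gene Ddx21 (1.36, SE 0.42, adjusted p = 0.027) and the zinc finger gene Lyar (1.16, SE 0.23, adjusted p = 0.00185) completed the class. Ncl rested on few molecules, 69 UMI over the anti-CD40 LZ libraries and 23 over the isotype LZ libraries.

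Of the 18 small subunit processome genes 13 rose in the LZ and 5 did not pass, with a median log2 fold change of 1.24. Imp4, Mphosph10 and Imp3 form a trimer bound to U3 RNA. Imp4 (chromosome 1 at 34439851 to 34449356, GRCm38) had 158, 218, 168 and 158 CPM in the anti-CD40 LZ libraries, against 74.9, 105, 75.4 and 62.8 CPM in the isotype LZ libraries, without overlap (log2 fold change 1.13, SE 0.19, adjusted p = 0.000409). Its DZ libraries were close, with 115, 127, 108 and 85.0 CPM in the anti-CD40 DZ libraries, against 103, 94.0, 102 and 79.5 CPM in the isotype DZ libraries, overlapping (log2 fold change 0.21, SE 0.19, adjusted p = 0.839). Mphosph10 had 72.9, 91.8, 88.8 and 89.1 CPM in the anti-CD40 LZ libraries, against 46.0, 40.8, 33.1 and 22.7 CPM in the isotype LZ libraries, well apart (log2 fold change 1.24, SE 0.24, adjusted p = 0.00113). It was the only processome gene to pass in the DZ, with 47.8, 69.3, 38.1 and 46.6 CPM in the anti-CD40 DZ libraries, against 26.6, 31.0, 26.6 and 24.8 CPM in the isotype DZ libraries and no overlap. That call (0.91, SE 0.23, adjusted p = 0.0445) was lost under 9 other settings, for example without anti-CD40 DZ library 2 (adjusted p = 0.262) or isotype DZ library 1 (0.136). Imp3 rose in the LZ as well (0.84, SE 0.22, adjusted p = 0.00989).

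Nop14, a scaffold protein between the early particle's domains, averaged 136 ± 34.2 CPM in anti-CD40 LZ cells and 56.0 ± 8.46 CPM in isotype LZ cells (SD, n = 4; fitted log2 fold change 1.27, SE 0.22, adjusted p = 0.000527), without overlap. Its DZ groups were apart too, but it did not pass (log2 fold change 0.78, SE 0.22, adjusted p = 0.0766). Wdr3 had the smallest LZ change of all 54. This subunit of the UTP-B complex had 66.5, 49.8, 53.3 and 26.6 CPM in the anti-CD40 LZ libraries, against 38.1, 50.2, 42.3 and 22.7 CPM in the isotype LZ libraries, with groups that overlapped over most of their range (log2 fold change 0.35, SE 0.34, adjusted p = 0.546). The other processome genes that did not pass in the LZ were Wdr75, Utp18, Emg1 and Ddx10, with log2 fold changes of 0.81, 1.28, 0.68 and 1.38. Emg1, a ribosomal RNA methyltransferase gene, had the lowest DZ value of the module (-0.16, SE 0.27, adjusted p = 0.945); its 3′ end overlaps Lpcat3 on the opposite strand. The remaining 9 (Utp4, Utp15, Wdr43, Heatr1, Pwp2, Tbl3, Utp20, Noc4l and Rcl1) rose by 1.03 to 1.78 on the log2 scale. Heatr1 and Tbl3 overlap a counted gene on the opposite strand at their 3′ ends (Lgals8 and Noxo1).

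Among the later small subunit factors, Nob1, Tsr1, Rrp12 and Ltv1 rose in the LZ and Pno1 did not pass. Nob1, the endonuclease that makes the last cut in small subunit RNA, had 131, 137, 76.6 and 129.7 CPM in the anti-CD40 LZ libraries, against 35.5, 34.5, 42.3 and 52.3 CPM in the isotype LZ libraries, without overlap (log2 fold change 1.52, SE 0.25, adjusted p = 0.000288). Anti-CD40 library 3 was far below the other 3. In the DZ Nob1 averaged 83.7 ± 17.3 CPM in anti-CD40 DZ cells and 51.3 ± 13.7 CPM in isotype DZ cells (SD, n = 4) and did not pass although the groups were apart (log2 fold change 0.70, SE 0.24, adjusted p = 0.172). Tsr1, a GTPase-like factor, averaged 139 ± 19.9 CPM in anti-CD40 LZ cells and 56.2 ± 27.6 CPM in isotype LZ cells (log2 fold change 1.28, SE 0.27, adjusted p = 0.00286), without overlap. Rrp12, an export factor for pre-ribosomes in yeast, averaged 66.9 ± 17.4 CPM in anti-CD40 LZ cells and 25 ± 11.8 CPM in isotype LZ cells (log2 fold change 1.39, SE 0.35, adjusted p = 0.0088), also without overlap.

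Ltv1, another late factor, had 117, 103, 106 and 56.3 CPM in the anti-CD40 LZ libraries, against 60.5, 51.7, 36.8 and 26.2 CPM in the isotype LZ libraries. Library 4 was the lowest in both groups, and the groups overlapped (log2 fold change 1.10, SE 0.37, adjusted p = 0.0449). The call was lost in 7 of the other fits, with adjusted p from 0.0650 without isotype LZ library 2 to 0.115 without isotype LZ library 3. Pno1, the partner of Nob1, had 212, 117, 161 and 48.4 CPM in the anti-CD40 LZ libraries, against 65.7, 79.95, 29.4 and 5.23 CPM in the isotype LZ libraries. Library 4 was again far below the rest, and the gene did not pass (log2 fold change 1.54, SE 0.64, adjusted p = 0.101). None of the 5 passed in the DZ. Bysl, under the filter, held 45 UMI over the anti-CD40 LZ and 20 over the isotype LZ libraries, and 36 and 26 over the DZ groups; its 3′ end overlaps Ccnd3.

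The large subunit factors included Nle1, the gene with the largest LZ log2 fold change of the module. Of 16 genes 14 rose in the LZ, with a median log2 fold change of 1.31, and 5 rose in the DZ. Nle1 encodes the mouse homologue of Notchless, on which the AAA ATPase midasin pulls to release factors from the pre-large subunit (chromosome 11 at 82900768 to 82908411, GRCm38). It had 125, 173, 124 and 211 CPM in the anti-CD40 LZ libraries, against 26.3, 31.4, 40.5 and 27.9 CPM in the isotype LZ libraries. No libraries overlapped, and libraries 2 and 4 were the highest with anti-CD40 (log2 fold change 2.33, SE 0.26, adjusted p = 7.54e-06). In the DZ it had 40.9, 69.3, 42.9 and 68.8 CPM in the anti-CD40 DZ libraries, against 21.8, 17.0, 19.7 and 29.8 CPM in the isotype DZ libraries, again apart (log2 fold change 1.33, SE 0.26, adjusted p = 0.00621).

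Mrto4, which in yeast holds the place of a stalk protein on the pre-ribosome, had 312, 363, 234 and 383 CPM in the anti-CD40 LZ libraries, against 85.5, 113, 95.6 and 124 CPM in the isotype LZ libraries, well separated (log2 fold change 1.62, SE 0.20, adjusted p = 2.05e-05). It also rose in the DZ, where it averaged 152 ± 34.9 CPM in anti-CD40 DZ cells and 75.0 ± 9.57 CPM in isotype DZ cells (SD, n = 4; fitted log2 fold change 1.01, SE 0.20, adjusted p = 0.0057). The annotation holds 2 pseudogenes named after Mrto4, so some of its reads may have been placed elsewhere. Nop16 had 334, 462, 291 and 289 CPM in the anti-CD40 LZ libraries, against 93.3, 141, 99.3 and 78.5 CPM in the isotype LZ libraries, with anti-CD40 library 2 the highest (log2 fold change 1.73, SE 0.23, adjusted p = 3.57e-05). In the DZ Nop16 averaged 157 ± 33.0 CPM in anti-CD40 DZ cells and 71.6 ± 14.8 CPM in isotype DZ cells (SD, n = 4), without overlap (log2 fold change 1.13, SE 0.22, adjusted p = 0.00652). Nop2, a methyltransferase of large subunit RNA (1.93, SE 0.27, adjusted p = 6.03e-05), and Noc2l, a partner in early particle transport (1.71, SE 0.25, adjusted p = 8.76e-05), rose in the LZ too. Both rose in the DZ, Nop2 by 1.25 (adjusted p = 0.0102) and Noc2l by 1.09 (adjusted p = 0.0169) on the log2 scale.

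Pes1 and Bop1, which join in a complex with Wdr12, rose in the LZ by 1.15 (adjusted p = 0.00097) and 1.27 (adjusted p = 0.00109). The 3′ end of Bop1 overlaps Mroh1 on the opposite strand. Wdr12, under the filter, held 43 UMI over the anti-CD40 LZ and 15 over the isotype LZ libraries, and 23 in each DZ group. Nip7 held 41 and 19 UMI in the LZ groups and 41 and 36 in the DZ groups, and Ebna1bp2 24 and 5 UMI and 25 and 25 UMI. Wdr74, Noc3l, Ddx18, Ddx27, Grwd1 and Ftsj3 rose in the LZ by 1.17 to 1.34. Noc3l no longer passed without the libraries numbered 4 (adjusted p = 0.0559).

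Surf6, a nucleolar matrix protein gene, changed least in this class. It had 45.9, 66.9, 67.7 and 79.7 CPM in the anti-CD40 LZ libraries, against 35.5, 34.5, 46.0 and 45.3 CPM in the isotype LZ libraries, so that anti-CD40 library 1 lay just below the highest isotype library, and it did not pass (log2 fold change 0.70, SE 0.27, adjusted p = 0.0802). Rrs1 did not pass either: it had 99.8, 106, 92.2 and 53.1 CPM in the anti-CD40 LZ libraries, against 28.9, 42.3, 55.2 and 1.74 CPM in the isotype LZ libraries. Isotype library 4 was near 0 and anti-CD40 library 4 was the lowest of its group, and the other libraries did not overlap (log2 fold change 1.45, SE 0.55, adjusted p = 0.07). Rrp1b, a nucleolar partner of large subunit particles, had 31.7, 46.7, 39.98 and 23.4 CPM in the anti-CD40 LZ libraries, against 15.8, 15.7, 11.03 and 12.2 CPM in the isotype LZ libraries, without overlap and at a low level (log2 fold change 1.35, SE 0.36, adjusted p = 0.0127). It no longer passed without anti-CD40 LZ library 2 (adjusted p = 0.0555). In the DZ it rested on 42 UMI with anti-CD40 and 13 with isotype (log2 fold change 1.68, SE 0.47, adjusted p = 0.0665).

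**Figure D3:**
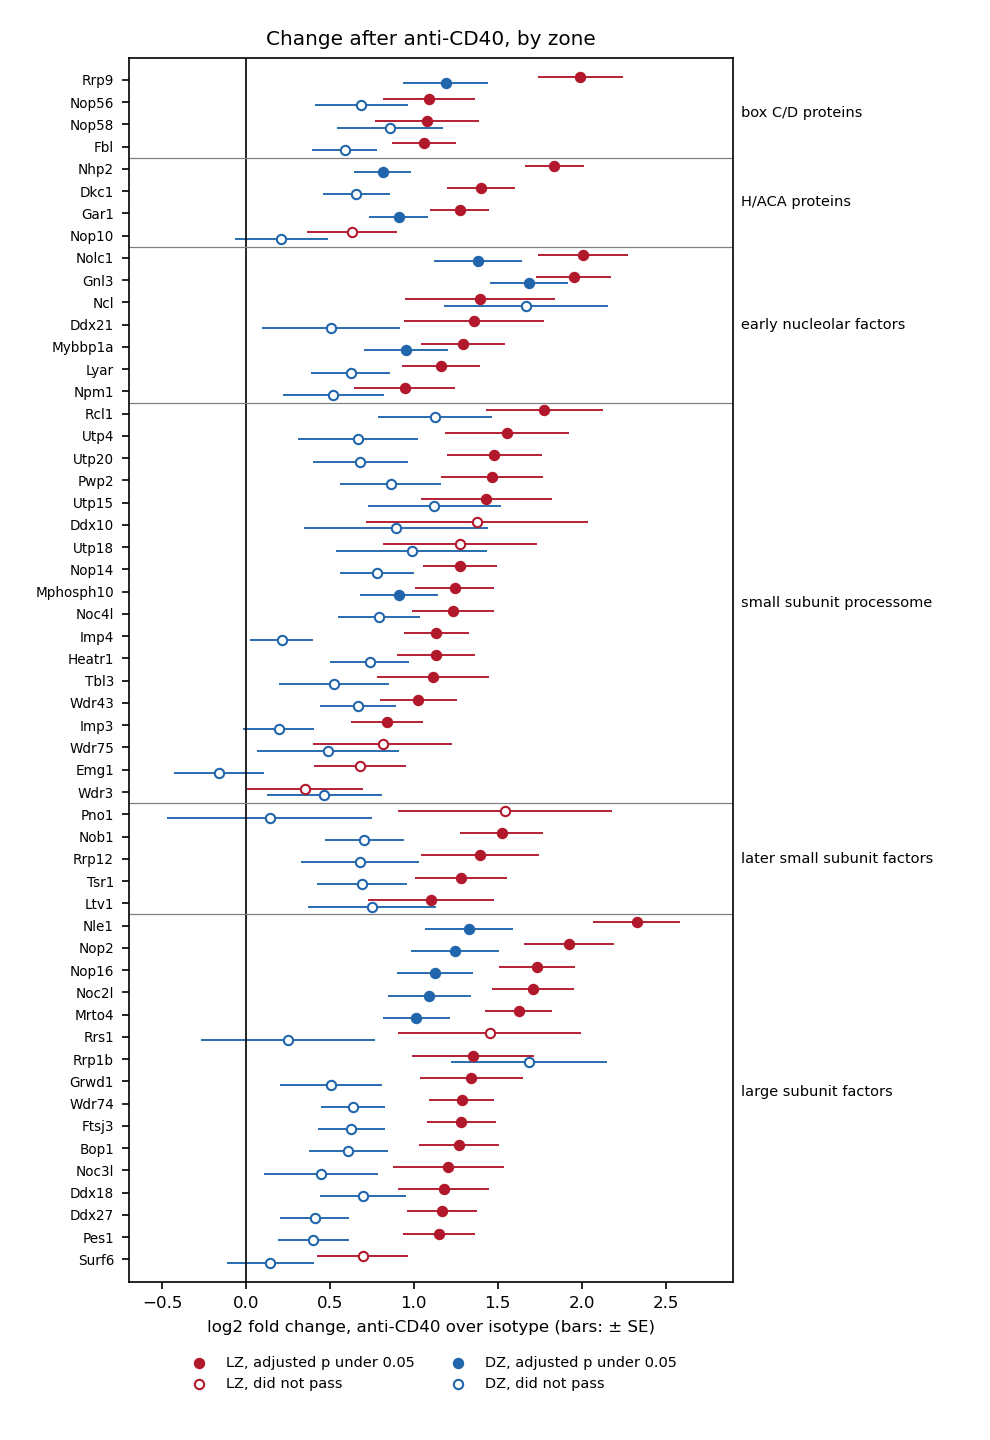
Log2 fold change of anti-CD40 over isotype for each of the 54 tested genes, in LZ (red) and DZ (blue) cells, with bars at ± SE from edgeR and filled points where the adjusted p was under 0.05. All LZ points lie right of 0 (0.35 to 2.33), and the DZ points run from -0.16 to 1.69.

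In DZ cells fewer of the genes passed. Of 54 genes 12 rose and 0 fell after anti-CD40 (edgeR), where 2.24% of all tested genes rose and 0.147% fell. The 12 were Rrp9, Nhp2, Gar1, Gnl3, Nolc1, Mybbp1a, Mphosph10, Nle1, Nop2, Nop16, Noc2l and Mrto4, and each of them also rose in the LZ; 33 passed in the LZ without passing in the DZ, and 9 passed in neither zone. Of the 54 values 53 were positive, with a median of 0.69 against -0.01 over all tested genes, and 34 had an unadjusted p under 0.05, as did 10.9% of all tested genes. Groups were apart for 23 genes with anti-CD40 higher, as for 4.95% of all tested genes. By class 1 of 4 box C/D, 2 of 4 H/ACA, 3 of 7 early nucleolar, 1 of 18 processome, 0 of 5 later small subunit and 5 of 16 large subunit genes passed; in the class with 0, 2 genes had an unadjusted p under 0.05. Without the libraries numbered 4, 15 of 55 testable genes rose, where 2.87% of all genes did.

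Whether the response differed between zones was tested gene by gene as an interaction. None of the 54 passed in edgeR (1 of 6824 tested genes did, 0.0147%), and none of 55 without the libraries numbered 4. An unadjusted p under 0.05 was found for 13 of the 54, and for 8.59% of all tested genes. DESeq2 called 1 member, where it called 0.557% of all genes, and limma-voom 0, where it called 0.0147%. The smallest edgeR adjusted p was 0.202, for Nhp2, whose LZ response exceeded its DZ response by 1.02 on the log2 scale (SE 0.24, 95% interval 0.52 to 1.53). DESeq2 called this gene (difference 1.01, adjusted p = 0.0162). Imp4 followed in edgeR (0.92, SE 0.27, interval 0.37 to 1.48, adjusted p = 0.303), then Nle1 (0.998, SE 0.37, interval 0.22 to 1.78, adjusted p = 0.444). The difference was positive in 51 of 54 genes, with a median of 0.61, while 50% of all tested genes were positive and their median was close to 0. The exceptions were Rrp1b, Ncl and Wdr3, at -0.33, -0.27 and -0.12. For 41 genes the 95% interval included 0, which does not show an equal response in the zones.

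Without anti-CD40 few of these genes passed in the comparison of LZ with DZ cells. In isotype cells 2 of 54 genes were higher in LZ than in DZ cells and 0 lower, where 1.29% of all tested genes were higher and 0.938% lower in LZ cells; 13 had an unadjusted p under 0.05, as did 12% of all tested genes. Rrp1b had 15.8, 15.7, 11.03 and 12.2 CPM in the isotype LZ libraries, against 3.41, 2.0, 3.95 and 2.48 CPM in the isotype DZ libraries. All LZ values were above all DZ values (log2 fold change 2.14, SE 0.47, adjusted p = 0.0179). Gnl3 had 98.6, 98.8, 73.6 and 54.1 CPM in the isotype LZ libraries, against 34.8, 41.0, 40.5 and 36.0 CPM in the isotype DZ libraries, also without overlap (log2 fold change 1.10, SE 0.24, adjusted p = 0.0155). Both calls were close to the threshold. Gnl3 was lost without isotype LZ library 1 or 2 or isotype DZ library 1 (adjusted p = 0.0582, 0.0650 and 0.0604), with log2 fold changes of 0.997, 0.9995 and 1.06. Rrp1b was lost without isotype LZ library 1 or 2 or isotype DZ library 2 (adjusted p = 0.0571, 0.0556 and 0.0636), with log2 fold changes of 2.07, 2.08 and 2.002. It was also lost with limma-voom (log2 fold change 2.09, adjusted p = 0.0662), and its isotype DZ libraries together held only 13 UMI. Without isotype LZ library 4, 5 genes passed, but the share of all tested genes in that fit is not given here. The median difference was 0.37, with 46 of 54 positive, against 0.02 and 51.8% positive over all tested genes, and LZ and DZ libraries were apart for 6 genes with LZ higher, as for 4.26% of all tested genes. Without the libraries numbered 4, 2 of 55 genes were higher, where 1.65% of all genes were.

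After anti-CD40 most of these genes passed in the comparison of LZ with DZ cells. The change of the zone difference with anti-CD40 is the same quantity as the interaction above, in which none of the 54 passed in edgeR. LZ cells were higher than DZ cells in 34 of 54 genes and lower in 0, where 6.14% of all tested genes were higher and 5.38% lower. All 54 differences were positive (median 0.95, against 0.03 over all tested genes), and 36 genes had every LZ library above every DZ library, as did 8.56% of all tested genes. The count covered 4 of 4 box C/D, 4 of 4 H/ACA, 5 of 7 early nucleolar, 7 of 18 processome, 2 of 5 later small subunit and 12 of 16 large subunit genes. Nhp2 led by adjusted p, with 1253, 1208, 761 and 1178 CPM in the anti-CD40 LZ libraries, against 492, 467, 357 and 522 CPM in the anti-CD40 DZ libraries and no overlap (log2 fold change 1.26, SE 0.17, adjusted p = 0.00012). Gnl3 (1.37, SE 0.22, adjusted p = 0.0004) and Nle1 (1.51, SE 0.24, adjusted p = 0.000446) followed. The count was 17 without anti-CD40 LZ library 2 and 20 without anti-CD40 DZ library 3, fits whose shares of all genes are not given here. It was 38 of 55 without the libraries numbered 4, where 6.23% of all genes were higher. Both zone comparisons share libraries with the anti-CD40 comparisons above, so their values are not separate evidence.

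Summed over the 54 genes, assembly factor RNA made up 10141, 12578, 9952 and 11753 CPM in the anti-CD40 LZ libraries, against 4833, 5062, 4410 and 3716 CPM in the isotype LZ libraries. In the DZ the sums were 5247, 6435, 4780 and 5919 CPM with anti-CD40, against 3599, 3609, 3744 and 3265 CPM with isotype. Groups within a zone did not overlap. The ratio of group means was 2.47 in the LZ and 1.57 in the DZ; LZ over DZ was 1.98 after anti-CD40 and 1.27 with isotype. By class the LZ ratio ran from 2.08 (processome) to 2.97 (H/ACA) and the DZ ratio from 1.31 (processome) to 1.72 (box C/D). Abundant genes weigh most in these ratios: Nhp2 averaged 1100 of the 1696 CPM of the H/ACA sum in anti-CD40 LZ cells. By median log2 fold change per gene the classes ranked otherwise. In the LZ the median ran from 1.08 (box C/D) to 1.39 (later small subunit factors), with 1.24 for the processome and 1.34 for H/ACA. In the DZ it ran from 0.63 (large subunit factors) to 0.95 (early nucleolar factors), with 0.71 for the processome and 0.77 for box C/D. These sums carry no test.

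**Figure D4:**
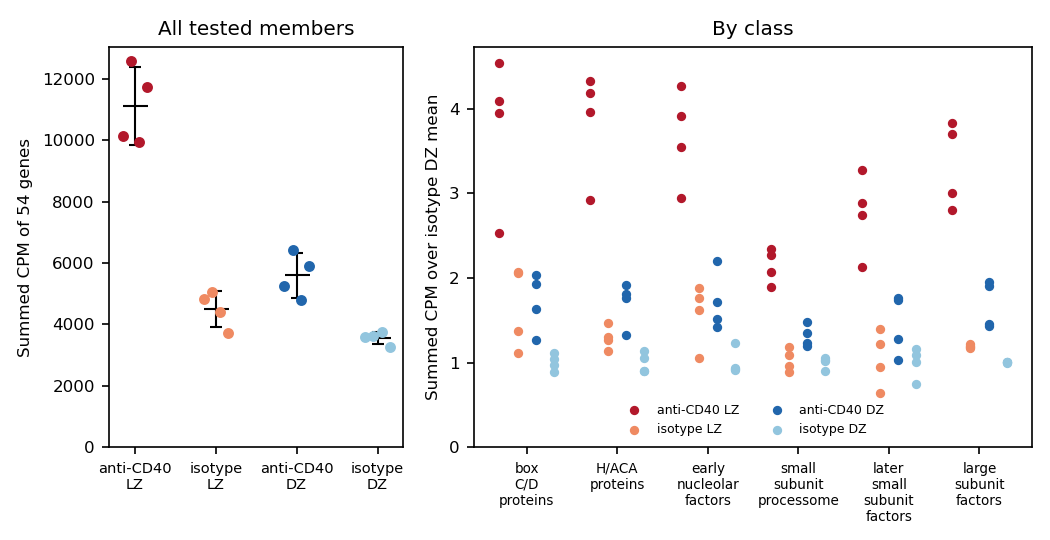
Left, summed CPM of the 54 tested genes, 1 point per library with the mean ± SD of each group (n = 4 libraries); right, the same sum for each class, divided by the mean of the isotype DZ libraries. Anti-CD40 LZ libraries (9952 to 12578 CPM) lie above all others, and anti-CD40 DZ libraries (4780 to 6435 CPM) lie above the isotype DZ libraries.

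In order of group means, anti-CD40 LZ was the highest group for all 54 genes and isotype DZ the lowest for 46. Anti-CD40 DZ cells were above isotype LZ cells in 46 genes and below them in 8. The order anti-CD40 LZ, anti-CD40 DZ, isotype LZ, isotype DZ held for 38 of the 46, in 7 more isotype LZ was the lowest group, and in 1, Emg1, isotype DZ also ranked above anti-CD40 DZ. The middle groups often did not differ beyond their spread: Fbl, for example, averaged 139.9 ± 31.1 CPM in anti-CD40 DZ and 128 ± 19.6 CPM in isotype LZ cells (SD, n = 4).

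Other genes of ribosome assembly, outside the module, also rose in the LZ. Of 83 other ribosome assembly symbols 76 were in the table and 68 were tested. In the LZ 35 of 68 rose and 0 fell, where 10.8% of all tested genes rose and 8.24% fell, with a median log2 fold change of 0.77. In the DZ 4 rose (Ppan, Rrp15, Rpf2 and Nat10) and 0 fell, where 2.24% of all tested genes rose and 0.147% fell, with a median of 0.31. Leaving out single libraries gave 2 to 6 there. With the smallest adjusted p in the LZ were Rrp15 (1.59, SE 0.19, adjusted p = 1.95e-05), Ppan (1.47, SE 0.20, adjusted p = 6.03e-05), Ddx31 (1.76, SE 0.26, adjusted p = 1.10e-04) and Mdn1 (1.79, SE 0.31, adjusted p = 4.94e-04). Mdn1 encodes midasin, the ATPase that acts on Nle1 protein. Rrp15 averaged 233 ± 36.9 CPM in anti-CD40 LZ and 77.1 ± 13.2 CPM in isotype LZ cells (SD, n = 4). Without the libraries numbered 4, 32 rose in the LZ and 8 in the DZ of 70 testable genes, where 9.64% and 2.87% of all genes did. The difference between the 2 lists was not tested.

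The libraries numbered 4 differed from the others over the whole table, the module included. With group in the model, an edgeR comparison added after the data had been seen called 11 of the 54 genes higher and 12 lower in the libraries numbered 4 than in numbers 1 to 3, where 15.9% of all tested genes were higher and 20% lower. The genes at the ends were chosen after their values were seen. The helicase gene Ddx10 was lowest (log2 fold change -2.33, SE 0.48, adjusted p = 7.51e-04), with 22.2, 17.1, 14.4 and 4.69 CPM in anti-CD40 LZ cells and 6.57, 9.41, 3.68 and 1.74 CPM in isotype LZ cells, and 0 in anti-CD40 DZ library 4. Ddx21 had the smallest adjusted p of the lower genes (-1.46, SE 0.21, adjusted p = 1.53e-05), with 129.9, 125, 141 and 64.1 CPM in anti-CD40 LZ cells and 52.6, 61.1, 49.7 and 14.0 CPM in isotype LZ cells. Library 4 was the lowest of each of those groups. At the other end Tbl3, a subunit of the UTP-B complex, was higher in library 4 (0.88, SE 0.15, adjusted p = 1.53e-04), and Rcl1, a processome protein that resembles RNA cyclases, had 93.5, 126, 83.3 and 152 CPM in anti-CD40 LZ cells and 21.0, 21.9, 27.6 and 62.8 CPM in isotype LZ cells (0.82, SE 0.18, adjusted p = 0.0015). In all 4 groups alike library 4 was below the mean of the other 3 for 15 genes and above it for 14. The share of all tested genes with such agreement was not counted, so whether it is particular to the module is not known.

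Transcripts of the 12 lower genes had a median GC content of 46.0% (42.4 to 54.2%) and those of the 11 higher genes 53.7% (47.3 to 59.8%). Over the 54 genes the log2 fold change of library 4 had a Pearson r of 0.47 with the GC content of the longest coding transcript (Spearman rho 0.45). Over 6628 tested genes with a transcript r was 0.50. These are descriptions across genes, which share the same libraries. As to the response to anti-CD40, the median LZ log2 fold change was 1.28 in the 12 lower genes and 1.29 in the 11 higher genes. In the DZ the median was 0.51 in the lower and 0.74 in the higher genes.

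Some LZ calls changed with these libraries. Of the 9 genes that did not pass in the LZ, 7 (Wdr75, Wdr3, Utp18, Emg1, Ddx10, Pno1 and Rrs1) were among the 12 that were lower in the libraries numbered 4. These calls are not independent, since a library far from its group widens the spread that the LZ test uses. Without those libraries Utp18, Emg1, Ddx10, Pno1 and Rrs1 rose in the LZ (log2 fold changes 1.10, 0.58, 1.36, 1.44 and 1.23), as did Nop10, and Nop58 and Noc3l no longer passed, so 43 genes passed both ways. Wdr3, Wdr75 and Surf6 passed in neither fit (adjusted p = 0.440, 0.152 and 0.112 without those libraries). Such overlaps were not counted over all tested genes, so whether they are particular to the module is not known.

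**Figure D5:**
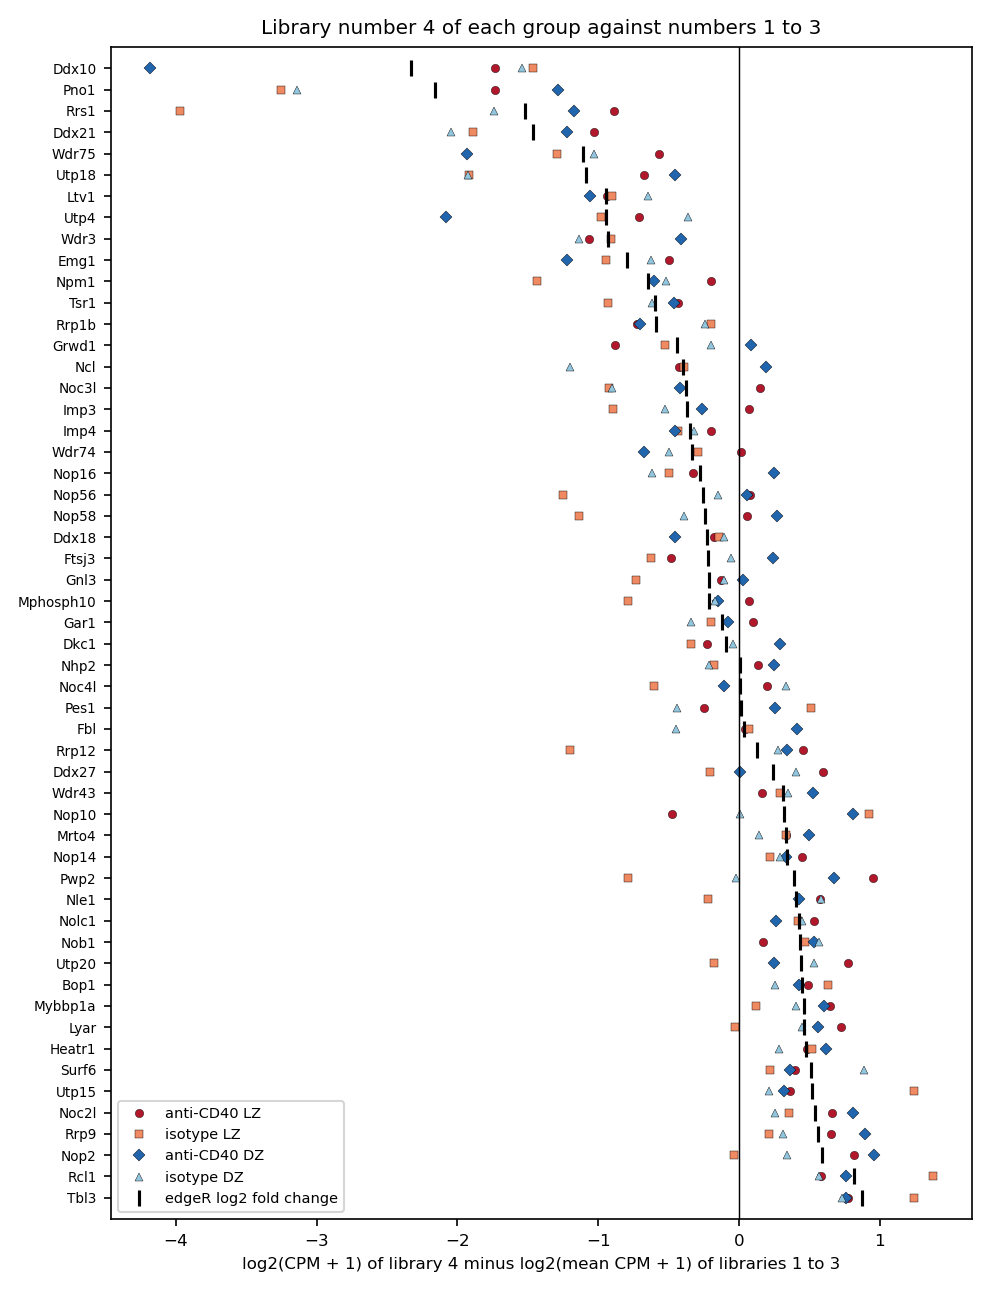
For each of the 54 genes, log2(CPM + 1) of the library numbered 4 minus log2(mean CPM + 1) of libraries 1 to 3, in each group (coloured points), with the edgeR log2 fold change over all groups as a black tick. Genes are sorted by this fold change, from Ddx10 (-2.33) at the top to Tbl3 (0.88) at the bottom. The points of a gene tend to lie on the same side in all groups at both ends, which the sorting itself favours.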

How the data were processed

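Germinal centre B cells gave 16 libraries, 4 in each of 4 groups. Barcodes and UMI were added at reverse transcription, per the labels' protocols. Reads were handled with cutadapt, STAR, HTSeq and DESeq2 on build mm10, per the submitters' processing notes, which give no versions; strand and annotation are not given in the sources used here. The deposited table holds UMI counts per gene for 9443 genes, which were the values tested. It also holds the authors' normalized signal, regularised log2 values, log2 fold changes and p-values, which were not used for any result.

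Counts were fitted with edgeR 4.0.16 (TMM scaling, filterByExpr with a minimum count of 10, robust glmQLFit, glmQLFTest) on R 4.3.3, with 1 mean per group over all 16 libraries. The 6824 genes kept held 98.6% of UMI, and p-values were Benjamini-Hochberg adjusted over them with a threshold of 0.05. Libraries held 493131 to 1473415 UMI, and the common biological coefficient of variation was 24.6%. Standard errors are the log2 fold change over the root of the quasi-likelihood F. Levels are CPM from TMM-scaled library sizes, except those of the cell type markers, which were scaled to total UMI only. The fits were tested on simulated data.

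The members, classes and lists were chosen with earlier results of these data known. Genes were named by a rule: all box C/D and H/ACA proteins, the 3 with the smallest adjusted p and the 1 with the lowest log2 fold change in the LZ of each other class, up to 3 that passed in each zone comparison, and of the other ribosome assembly genes the 4 with the smallest adjusted p in the LZ. Other genes are named to account for every member or, for the libraries numbered 4, after their values were seen. Alternatives were DESeq2 1.42.0, limma-voom (limma 3.58.1), RLE and upper quartile scaling, no filter, at least 20 counts in 4 libraries, only the groups compared, the replicate number as a block, and leaving out single libraries or the 4 numbered 4. Promoter sequences came from RefSeq tables on GRCm38. Figures were drawn with Matplotlib 3.10.9.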

Additional observations from a re-analysis of the deposited data

Results flagged for a closer look

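Groups of 4 libraries, 104 in all and mostly those of the named genes, were looked at for 1 library far from the others. The rule was Dixon's ratio above its 95% critical value, and chance gives about 5.2 such groups. There were 9. With anti-CD40 in the LZ, Nhp2 was low in library 3 (761 CPM, others 1178 to 1253), as was Nob1 (76.6 CPM, others 129.7 to 137). Imp4 was high in library 2 (218 CPM, others 158 to 168) and Mphosph10 low in library 1 (72.9 CPM, others 88.8 to 91.8). With anti-CD40 in the DZ, library 4 was high for Rrp9 (132 CPM, others 66.7 to 77.0) and Nob1 (109 CPM, others 71.5 to 77.7). Mybbp1a was low in isotype LZ library 1 (184 CPM, others 223 to 228). In the isotype DZ group, Nop58 was high in library 3 (134 CPM, others 77.0 to 86.7) and Ltv1 in library 1 (44.4 CPM, others 17.4 to 20.7).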

How the results depend on the processing

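Over all alternatives the members called in the LZ numbered 38 to 53 (45 as reported), with none lower. Leaving out single libraries gave 38 to 44 in the LZ, 8 to 16 in the DZ, 0 to 0 for the difference between zones, 0 to 5 for the isotype zones and 17 to 33 for the anti-CD40 zones; for the other ribosome assembly genes it gave 25 to 34 in the LZ and 2 to 6 in the DZ. Shares of all tested genes in the fits without single libraries are not given here. The isotype zone count, 2 as reported, was 1 with limma-voom and 1 with only the groups compared. The difference between zones was called for 1 gene by DESeq2, and the other genes' DZ count was 8 without the libraries numbered 4, against 4. Of the named genes' values under the alternatives, 798 kept direction and call, 12 gained a call, 38 lost one and 1 reversed: Nop10 in the DZ without anti-CD40 DZ library 4 (-0.000805, adjusted p = 0.999; up to 0.35 without other single libraries). The cause was not tested. Upper quartile scaling moved the LZ median of all genes to -0.10 and left that of the members at 1.17.

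Replicate numbers are shared by the groups. Same-numbered libraries had correlations of -0.205 to 0.658 (median 0.348, 18 of 24 above 0.1), and other pairs -0.691 to 0.495 (median -0.074, 23 of 72 above 0.1). In 28 of 48 cases a library's best match in another group had its own number. This was uneven: pairs of libraries numbered 4 had correlations of 0.492 to 0.658, and pairs numbered 3 had -0.205 to 0.365. Whether same-numbered libraries shared a source was not tested. Since not every pair was above 0.1 and no label says what the numbers mark, the fit without the block was kept. With the replicate number as a block, 53 members rose in the LZ and 29 in the DZ (16.5% and 4.88% of all genes), 3 for the difference between zones (Nhp2, Imp4 and Emg1; 1.57% of all genes in either direction), 5 for the isotype zones (3.53%), and 12 of the other genes in the DZ. Values of some genes, such as Ddx10, Ncl and Rrp1b, rest on few UMI, and why their counts were low was not tested.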
